A study of Mus musculus with 6 samples.

Results

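The cochlear nucleus, the brainstem station where auditory nerve fibres end, develops from the hindbrain. Followed were 9 transcription factor genes that act in hindbrain development: Hoxa2, Hoxb2, Hoxa3, Hoxb3, Lhx9, Meis1, Meis2, Barhl1 and Barhl2. No other brain region was measured here, so none of them was shown to be particular to the hindbrain. Every probe set to which the platform annotation gives one of these symbols and no other was taken. This gave 11 of the 22690 probe sets of the array, for 8 of the 9 genes, and no probe set carried the symbol Barhl2 alone. Tetrodotoxin, a toxin that blocks voltage-gated sodium channels and so silences action potentials, had been infused by osmotic pump into 1 cochlea of mice at postnatal day 21 for 24 h. Tissue of the nucleus on the infused side (ipsilateral, labelled as treated) and on the other side (contralateral, labelled as control) was pooled from 10 to 12 mice per sample, and 3 replicates per side were hybridised to 1 Affymetrix array each. Both sides came from mice with a pump, no untreated mice were measured here, and the labels give neither strain nor sex. The comparison asks which genes of the nucleus change their messenger RNA level when the nerve is silent.

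Hox genes encode homeodomain proteins whose chromosomal order matches the order of their expression along the body axis. In the hindbrain, genes of paralog groups 2 and 3 are switched on in the segments (rhombomeres) from which the cochlear nucleus arises, while higher numbered groups begin further back, toward and in the spinal cord. Meis1 and Meis2 are homeodomain proteins of the TALE class that bind DNA together with Hox and Pbx proteins. Lhx9, a LIM homeodomain factor, and Barhl1 and Barhl2, homeodomain factors related to fly BarH, act in neurons of the Atoh1 lineage of the rhombic lip, which gives rise to excitatory neurons of the cochlear nucleus and to granule cells.

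The array medians lay between 5.86 and 5.91 on the log2 scale of the deposited values. In 15298 probe sets with a mean above 4, the limit used for testing, limma found 0 with a Benjamini-Hochberg adjusted p under 0.05 between the sides (0% of those tested) and 364 at an unadjusted p under 0.05 (2.38%). Pan-neuronal markers were above that limit for 10 of 10 genes and oligodendrocyte markers for 7 of 7, as were 13 of 13 markers of cerebellar granule and Purkinje cells and 9 of 9 markers of the choroid plexus, the tissue in the ventricle beside the nucleus. The mean of the choroid plexus markers lay between 7.27 and 8.06 on the contralateral arrays, at 9.05 on ipsilateral array 1, and at 4.90 and 4.98 on ipsilateral arrays 2 and 3. Ipsilateral arrays 2 and 3 therefore stood apart before any gene was compared. In pooled tissue, fewer cells of a type and less RNA per cell cannot be told apart.

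Of the Hox genes with a probe set of their own, those above the limit at postnatal day 21 belonged to paralog groups 2 and 3. All 4 probe sets of Hoxa2, Hoxb2 and Hoxa3 had a mean above 4, and Hoxb3 lay just under the limit with a mean of 3.96. Hoxa3, with means of 4.63 and 4.60, would not pass a minimum of 5. Among 8 other Hox genes of groups 1 to 4, 3 had no probe set of their own. Of the other 27 Hox genes with a probe set of their own, 0 had a mean above 4 in any of their 32 probe sets, where 67.6% of all probe sets of the array passed. Their means ran from 2.15 to 3.92. Among 192 single values of these 32 probe sets 1 exceeded 4, that of a Hoxc6 probe set (4.08 on ipsilateral array 3), a gene named here after its value was seen. For the 5 probe sets of Hoxa2, Hoxb2, Hoxa3 and Hoxb3, 27 of 30 single values exceeded 4. Over all members 9 of 11 probe sets were above 4 on each of the 6 arrays, where 64.5% of all probe sets were. The groups on either side were under the limit: the 2 probe sets of group 1 (Hoxb1 and Hoxd1) had means of 2.15 and 2.73, and the 5 of group 4 (Hoxa4, Hoxb4 and Hoxc4) ran from 2.44 to 3.30. Another 3 Hox probe sets carry 2 gene symbols and were not used. The array has no detection call in the deposited values, and a value below 4 can be a low transcript level or a probe set that binds poorly, so a Hox gene under the limit was not shown to be silent. For the same lack of a call, a gene little above the limit, such as Hoxa3, was not shown to be expressed.

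**Figure D1:**
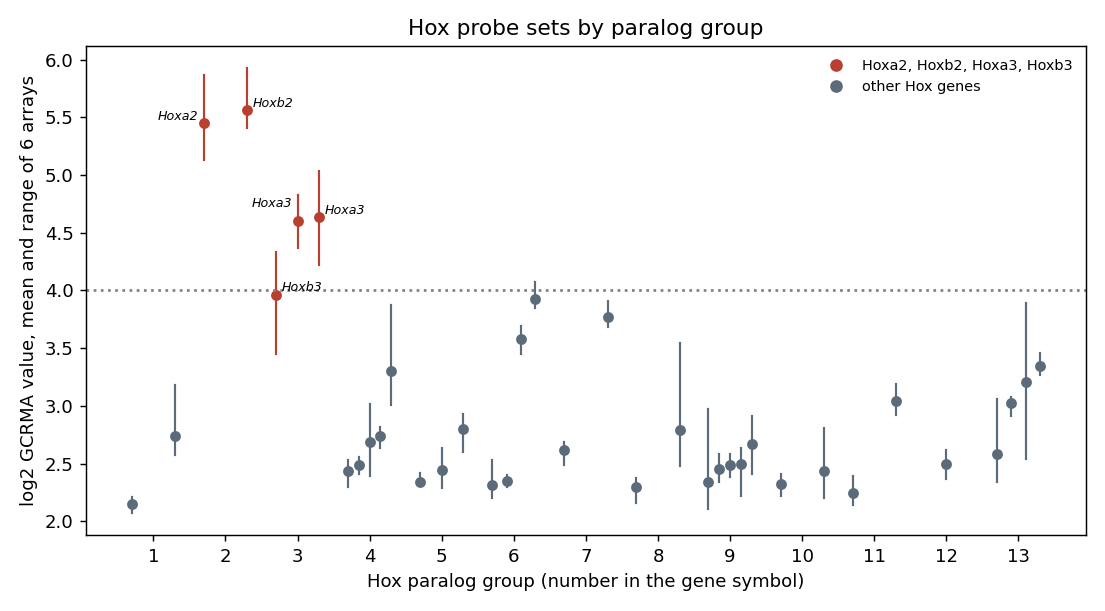
Deposited log2 GCRMA values (y axis) of every Hox probe set with 1 gene symbol, by paralog group (x axis). Points are means and lines the range over the 6 arrays, and the dotted line is the limit of 4. Probe sets of groups 2 and 3 lie at 3.96 to 5.56 and all others at 2.15 to 3.92; heights of different probe sets depend on their probes and rank no genes.

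Hoxa2, which sets the identity of the second rhombomere and of the neural crest that leaves the hindbrain behind it, measured 5.31, 5.16 and 5.87 on contralateral arrays 1 to 3 and 5.43, 5.13 and 5.80 on ipsilateral arrays 1 to 3 (probe set 1419602_at). Replicate 3 was the high one and replicate 2 the low one on each side, and the sides overlapped. The mean was 5.45 ± 0.37 contralaterally and 5.45 ± 0.34 ipsilaterally (SD, n = 3 each), a log2 difference of 0.01 with a 95% interval of -0.55 to 0.56 (limma, unadjusted p = 0.984, adjusted p = 1.00). As a ratio of ipsilateral to contralateral signal this interval runs from 0.681 to 1.48. It comes from the fit without a replicate block, and with the block the log2 interval was -0.22 to 0.23. The sign of so small a difference turned without contralateral replicate 1 (-0.06), contralateral replicate 2 (-0.14) or ipsilateral replicate 3 (-0.17), and also when both replicate 1 arrays were left out (-0.05).

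Hoxb2, a neighbour of Hoxb3 in the HoxB cluster and a target of Krox20 in the hindbrain, measured 5.43, 5.56 and 5.93 contralaterally and 5.41, 5.51 and 5.55 ipsilaterally (1449397_at). Contralateral array 3 stood above the other 5 arrays, and the infused side was the lower one in 3 of 3 replicates, as it was for 13% of all tested probe sets. The difference of -0.15 (95% interval -0.49 to 0.18; limma, unadjusted p = 0.319) ranged from -0.25 without contralateral replicate 1 to -0.01 without contralateral replicate 3, and was -0.04 with both replicate 3 arrays left out.

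Hoxa3 and Hoxb3 act further back, from the fifth rhombomere on. A first probe set of Hoxa3 (1427433_s_at, a suffix that marks probes shared with other transcripts, called the brighter in the plots) measured 4.22, 4.69 and 4.83 contralaterally and 4.60, 4.44 and 5.03 ipsilaterally. The second (1452421_at) measured 4.83, 4.54 and 4.62 contralaterally and 4.50, 4.76 and 4.36 ipsilaterally. The 2 probe sets went opposite ways in each replicate: the first differed by 0.39, -0.26 and 0.20 in replicates 1 to 3 and the second by -0.33, 0.23 and -0.25. Averaged over replicates they differed by 0.11 (95% interval -0.39 to 0.61) and -0.12 (-0.44 to 0.21), so no direction can be given for Hoxa3. The first turned to -0.07 without contralateral replicate 1, -0.06 without ipsilateral replicate 3 and -0.03 when both replicate 1 arrays were left out. Hoxb3 (1427605_at) measured 4.0, 3.92 and 4.34 contralaterally and 4.0, 3.45 and 4.08 ipsilaterally, above 4 on 3 of 6 arrays, and with its mean under the limit it was not tested. Its difference was -0.24, with the lowest value on ipsilateral array 2 and overlapping sides, and it was -0.05 without ipsilateral replicate 2 and -0.13 with both replicate 2 arrays left out.

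Meis1 (1450992_a_at), which is also made in granule cells, measured 7.76, 8.10 and 8.15 contralaterally and 7.99, 8.08 and 8.32 ipsilaterally. Contralateral array 1 was low and ipsilateral array 3 high, and the 4 remaining values lay between them. The means were 8.00 ± 0.21 and 8.13 ± 0.17 (n = 3 each), and the difference of 0.13 (95% interval -0.22 to 0.47; limma, unadjusted p = 0.409) ran from 0.0052 without contralateral replicate 1 and 0.03 without ipsilateral replicate 3 to 0.20 without contralateral replicate 3 or without ipsilateral replicate 1. Meis2 (1417129_a_at) had 9.36, 9.39 and 9.48 contralaterally and 9.07, 9.40 and 9.49 ipsilaterally. Of the 6 values 5 lay within 9.36 to 9.49, and ipsilateral array 1 was the low one. The difference of -0.09 (95% interval -0.40 to 0.21; limma, unadjusted p = 0.499) turned to 0.03 without ipsilateral replicate 1 and to 0.0089 when both replicate 1 arrays were left out. In ratio terms the intervals allow 0.861 to 1.39 for Meis1 and 0.76 to 1.16 for Meis2. Meis1 and Meis2 were the only members with a mean above 6, a level that 48.6% of all probe sets passed.

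Other genes of the Hox cofactor families were measured beside them. Of 8 such genes with a probe set 6 were above the limit, 3 of them lower and 3 higher ipsilaterally. Their median difference was -0.0020 against -0.0055 over all tested probe sets, and 0 had an unadjusted limma p under 0.05. Pbx2, a Pbx partner of Hox and Meis proteins, measured 7.57, 7.36 and 7.33 contralaterally and 7.48, 7.56 and 7.44 ipsilaterally, and Pbx3 7.11, 6.72 and 7.25 against 7.0, 7.03 and 7.11. Meis3 differed by 0.07, Pknox1, also called Prep1, by -0.04 and Tgif2, a TALE repressor, by -0.13. Pbx4 and Pknox2 were under the limit.

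Meis and Prep proteins bind the hexamer TGACAG, so the promoter windows of the members (RefSeq, assembly GRCm38.p6, 250 bases before to 50 after a gene's start) were searched for it on both strands. The motif was picked after values and sequences had been seen. A window was held for 7 of 9 genes, 8 windows in all, and none for Hoxb2 and Hoxb3. TGACAG was found in 4 of the 8 windows, against 19.2% of all 32851 windows. The stretches before the start of Hoxa2, Hoxa3 and Lhx9 that hold it are shown 5′ to 3′ on the gene's strand, with the match in capitals (CTGTCA where the match is on the opposite strand).
Hoxa2: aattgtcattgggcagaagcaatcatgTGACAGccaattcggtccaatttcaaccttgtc
Hoxa3: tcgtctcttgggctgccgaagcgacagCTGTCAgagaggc
Lhx9: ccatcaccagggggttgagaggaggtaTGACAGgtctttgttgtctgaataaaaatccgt
These are chr6:52164843-52164902, chr6:52213068-52213107 and chr1:138842537-138842596, all on the minus strand, and the match begins 44, 13 and 125 bases before the start. The fourth match, in 1 of the 2 windows of Barhl1, spans the start itself and is not shown. TGATNNAT, the form of a joint Hox and Pbx site, was found in 1 of 8 windows, that of Hoxa2 and not overlapping the hexamer, against 8.85% of all windows. The homeodomain core TAATTA was found in 1 of 8, a Barhl1 window, against 5.29%. A match describes letters and is not a shown binding site, and its absence says only that these letters are not in the window.

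Lhx9 was the member whose sides did not overlap. Its brighter probe set (1419324_at) measured 5.0, 5.20 and 5.04 contralaterally and 4.86, 4.97 and 4.92 ipsilaterally, so every ipsilateral array lay below every contralateral one. Such a separation with the infused side lower was seen for 1 of the 10 member probe sets tested and for 3.44% of all tested ones, and the reverse, infused side higher, for 0 of 10 and 2.82%. The difference was -0.16 (SE 0.10, 95% interval -0.39 to 0.07), a ratio of 0.895 with an interval of 0.765 to 1.05, and did not pass (limma, unadjusted p = 0.140, adjusted p = 1.00). It ran from -0.20 without contralateral replicate 1 to -0.10 without contralateral replicate 2. The dimmer probe set (1431598_a_at) measured 4.08, 4.09 and 3.98 contralaterally and 4.07, 4.11 and 4.04 ipsilaterally. It lay at the limit on each array, with a spread over the 6 arrays (SD 0.04) that 2.1% of tested probe sets undercut, and its difference was 0.02 (95% interval -0.18 to 0.23).

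Barhl1, a factor of the Atoh1 lineage that is found in granule cells, had 2 probe sets that gave opposite signs. The brighter (1418812_a_at) measured 5.54, 5.81 and 5.72 contralaterally and 5.96, 4.75 and 5.81 ipsilaterally. A single value, that of ipsilateral array 2, lay far below the other 5. The difference was -0.18 with that array (95% interval -0.92 to 0.55; limma, unadjusted p = 0.571) and turned to 0.20 without ipsilateral replicate 2 and to 0.26 when both replicate 2 arrays were left out. The dimmer probe set (1418811_at) measured 4.86, 4.49 and 4.43 contralaterally and 4.99, 4.50 and 4.91 ipsilaterally. Ipsilateral array 2 did not stand apart from the contralateral arrays there. That probe set was higher on the infused side in 3 of 3 replicates, as were 10.7% of all tested probe sets, by 0.21 (95% interval -0.20 to 0.62; limma, unadjusted p = 0.270).

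**Figure D2:**
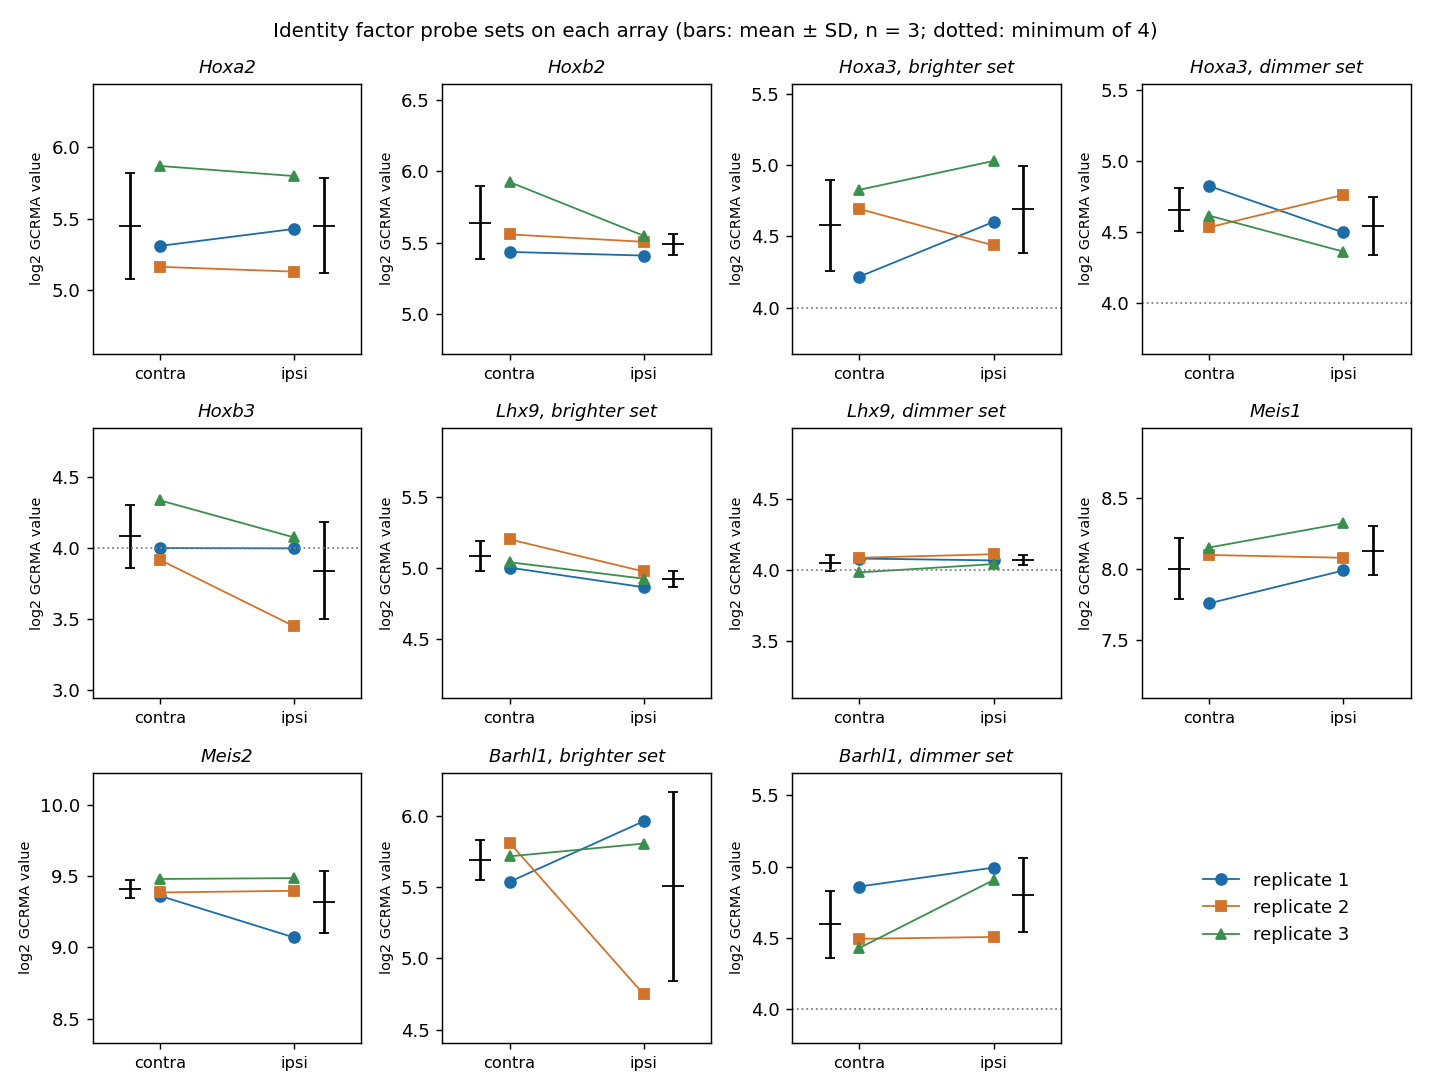
Deposited log2 GCRMA values (y axis) of the 11 probe sets on contralateral (contra) and ipsilateral (ipsi) arrays, with lines joining arrays of the same replicate number. Horizontal marks with bars are the mean ± SD of 3 arrays, the dotted line is the limit of 4, and each panel spans the same height. The sides overlap in every panel but that of the brighter Lhx9 probe set, and ipsilateral array 2 is low for the brighter Barhl1 probe set (4.75).

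Over the members together, 5 of the 10 tested probe sets were lower on the infused side and 5 higher, where 51.8% of all tested probe sets were lower. Their differences ran from -0.18 to 0.21, with a median of -0.04 (-0.0055 over all probe sets tested). In limma 0 of 10 passed an adjusted p of 0.05 and 0 of 10 an unadjusted p of 0.05, the smallest unadjusted p being 0.140. A p above the threshold does not show equal levels on both sides. The narrowest 95% interval spanned 0.41 on the log2 scale (the dimmer Lhx9 probe set) and the widest 1.46 (the brighter Barhl1 probe set), both in the fit without a replicate block. An exact two-sided permutation test of 3 arrays against 3 that ignores replicate numbers could not give a p below 0.1. With the replicate block, too, 0 of 10 had an unadjusted limma p under 0.05.

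**Figure D3:**
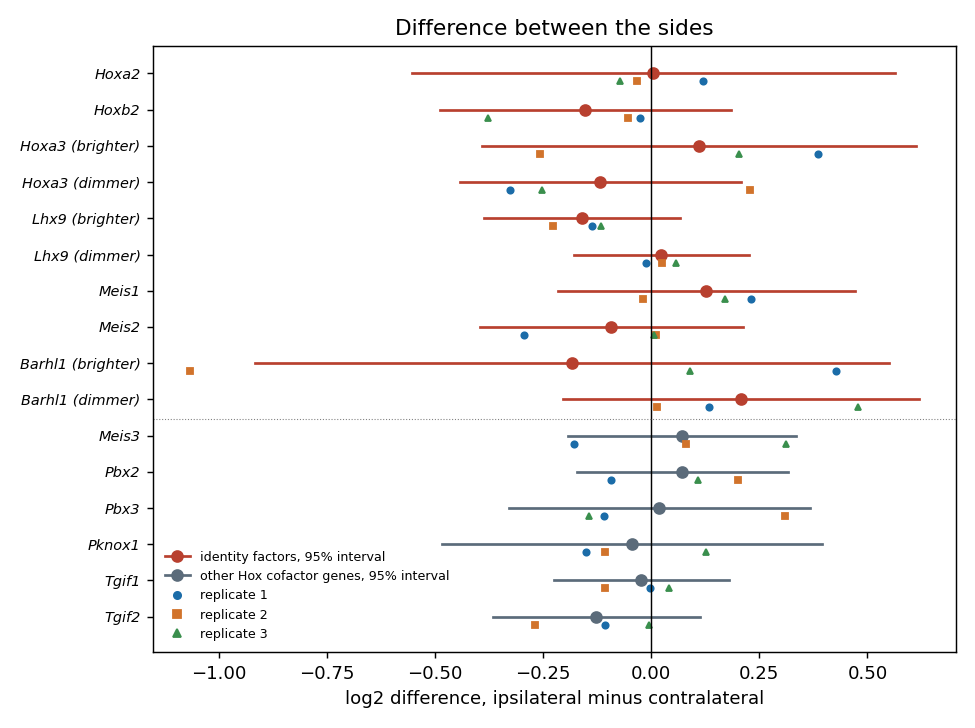
Log2 difference, ipsilateral minus contralateral (x axis), of the 10 tested probe sets of the members (red, above the dotted line) and of 6 other Hox cofactor genes (grey). Large points and lines are the limma estimate and its 95% interval over 6 arrays, small symbols the difference in each replicate. Every interval includes 0, and the widest, from -0.92 to 0.55, is that of the brighter Barhl1 probe set.

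The spread among replicates was shared by several members. Hoxa2, Hoxb2, the first Hoxa3 probe set, Hoxb3, Meis1 and Meis2 had their highest value of each side on array 3, which makes 6 of 11 probe sets and 5 of the 10 tested, against 22.9% of all tested probe sets. The count was made after the values were seen. On the same arrays the mean of 13 cerebellar granule and Purkinje markers was 9.70 contralaterally and 9.70 ipsilaterally, against 9.12 to 9.33 on the other 4 arrays, and the mean of 10 pan-neuronal markers was 10.78 and 10.88 against 10.48 to 10.61. Oligodendrocyte markers were also highest on array 3 of each side, at 12.926 and 12.944, ipsilaterally little above array 2 (12.930). The astrocyte, microglia, vascular, meninges and choroid plexus lists were not highest there on both sides. The part of these cell types in the member values was not tested. Not every pan-neuronal gene was high on array 3: Map2 (7.82 and 7.90) and Syt1 (7.80 and 7.84) were highest there on each side, and Tubb3 was lowest there (10.24 and 10.19). Choroid plexus markers followed another pattern, being low on ipsilateral arrays 2 and 3, where Meis1 measured 8.08 and 8.32, above the 7.99 of ipsilateral array 1 with its high choroid plexus level. Meis2 was lowest on that array 1 (9.07), Hoxb3 and the brighter Barhl1 probe set were lowest on ipsilateral array 2 (3.45 and 4.75), and on ipsilateral array 3 these 2 measured 4.08 and 5.81. With the choroid plexus marker mean as a covariate the difference of Meis2 moved to -0.22 (limma, unadjusted p = 0.0772), and those of Meis1 and the first Hoxa3 probe set to 0.04 each. Ipsilateral array 1 held both the highest choroid plexus mean (9.05) and the lowest Meis2 value (9.07). Without that array, and with no covariate, Meis2 differed by 0.03. Leaving out ipsilateral arrays 2 and 3, a choice made after the data were seen, leaves 1 ipsilateral array against 3, so the spread comes from the contralateral arrays and the lone array is assumed to vary like them. All 8 measured members then had a mean above 4 over the 4 arrays. Among them Hoxb3 lay at the limit, with 4.0, 3.92 and 4.34 contralaterally and 4.0 on ipsilateral array 1. Meis2 differed by -0.34, and the lone ipsilateral array was the one where Meis2 was lowest.

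**Figure D4:**
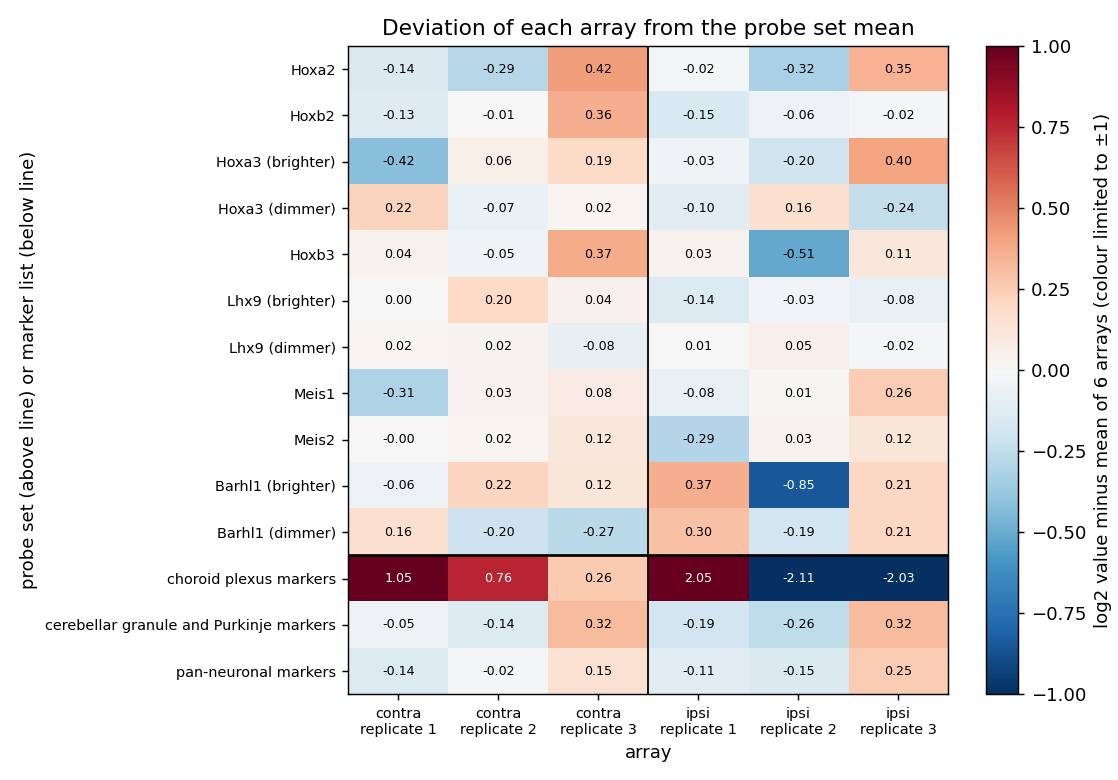
Log2 value of each array (columns) minus the mean of the 6 arrays, for the 11 member probe sets (above the thick line) and for the mean of 3 marker lists (below it). Red is above and blue below the mean, with the value printed in each cell. Replicate 3 is above the mean on both sides for Hoxa2 (0.42 and 0.35) and for the granule and Purkinje markers (0.32 and 0.32), while the choroid plexus row departs on other arrays.

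Across the 6 arrays the brightest probe sets of the 7 tested members gave 21 pairs, with Pearson r from -0.31 (Hoxa2 and Lhx9) to 0.93 (Hoxa3 and Meis1). Hoxa2 and Hoxa3 gave 0.71, and Hoxa2 and Hoxb2 0.63. These are descriptions over 6 arrays, and their points share arrays and pools. The r values of Hoxa3 are those of its first probe set, with shared probes. Its second probe set, of nearly the same mean (4.60 against 4.63), differed between the sides with the opposite sign in each replicate. No r was taken for that second probe set, so these values hold for the first one only. Among the 8754 named genes tested, those closest to a member by Pearson r over the 6 arrays were Rabgap1 and Crbn for Hoxa2 (0.996 and 0.992), Pex13 and Ccdc102a for Hoxb2 (0.99 and 0.98), Ints4 and H2aw for Hoxa3 (0.99 and 0.98), Zw10 and Tmem176b for Lhx9 (0.98 for each), Osgep and Fam120b for Meis1 (0.99 and 0.98), Ercc2 and Idua for Meis2 (0.99 for each), and Bambi and Pccb for Barhl1 (0.99 and 0.98). Each was picked as the highest r among so many genes over so few arrays, so its size supports no relation.

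Factors that act around the members in the hindbrain gave a mixed picture. Of 29 hindbrain segmentation and rhombic lip factors with a probe set 11 were above the limit. The 18 under it included Atoh1, which starts the rhombic lip lineage, Ptf1a, which starts the inhibitory lineage of the nucleus, and Egr2, also called Krox20, an activator of Hoxa2 and Hoxb2 in the embryo (highest means 2.66, 2.89 and 3.36). Kmt2a, the histone methyltransferase MLL1 that keeps Hox genes active, measured 7.63, 7.27 and 7.39 contralaterally and 7.32, 7.34 and 7.60 ipsilaterally. Above a mean of 6 were also Zic1 (difference 0.05), Neurod1 (0.14) and Pax6 (-0.04), all expressed in granule cells, and Mab21l2. Lmx1a, a roof plate factor, differed by 0.16 and Tfap2a by -0.16. Of the 11 tested genes 6 were lower and 5 higher ipsilaterally, and the median difference was -0.0089. The 1 with an unadjusted limma p under 0.05 was Mab21l2, a developmental regulator, at 7.12, 7.26 and 7.35 contralaterally and 6.74, 6.37 and 6.96 ipsilaterally (difference -0.55, unadjusted p = 0.0113, adjusted p = 1.00), with no overlap of the sides. Over all tested probe sets 2.38% had an unadjusted limma p under 0.05, and 3.44% had sides that did not overlap with the infused side lower.

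Of 17 forebrain and midbrain identity factors with a probe set 14 were under the limit, among them Six3, Dlx1, Dlx2, Nkx2-1 and Tbr1. The 3 above it were Eomes, a marker of unipolar brush cells, Neurod6 and Otx2, which is made in choroid plexus. Otx2 measured 7.26, 7.11 and 7.01 contralaterally and 7.97, 5.85 and 6.36 ipsilaterally, low on the 2 arrays low in choroid plexus markers. Eomes differed by 0.0060 and Neurod6 by -0.12. Of all 31 Hox genes and 17 anterior factors with a probe set, those above the limit were thus Hoxa2, Hoxb2, Hoxa3, Eomes, Neurod6 and Otx2.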

How the data were processed

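Total RNA of 6 pooled tissue samples was measured on 1 array each. The deposited log2 values per probe set were made by the authors with GCRMA, which corrects background, normalizes between arrays and summarises probes, per the submitters' processing notes. The GCRMA version is not given in the sources used. That the scale is log2 follows from the range of the values, 1.40 to 16.0. GCRMA compresses dim probe sets, and normalization removes changes common to most genes.

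Sides and replicate numbers were taken from each sample's description. Of 22690 probe sets 20393 had 1 gene symbol, 691 several and 1606 none. The 64 controls and 7328 probe sets with a mean at or below 4 were left out of the test. limma 3.58.1 in R 4.3.3 (lmFit, eBayes) compared ipsilateral with contralateral over 6 arrays without a replicate block, with Benjamini-Hochberg adjustment over 15298 probe sets, threshold 0.05. The fit was tested on simulated data, and the outcome of that test is not reported here. A gene in a list is its probe set of highest mean. The labels call the samples biological replicates; the number of arrays limits the precision.

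The members and lists were chosen with earlier results of these data known. Named are all members, up to 3 genes per regional list by smallest p, regional genes with a mean above 6, and the 2 genes most alike to each member; regional genes under the limit were named as examples outside this rule, after their values were seen; marker lists are given by their means. From the series' design, same-numbered samples were taken to be both sides of the same mice. Their deviations from the side means correlated at 0.09, 0.04 and 0.57 for replicates 1, 2 and 3, those of other pairs between -0.37 and 0.30. Alternatives were the low-value filter, normalization, variance model, replicate block, probe set choice, choroid plexus covariate, threshold and arrays left out.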

Additional observations from a re-analysis of the deposited data

How the results depend on the processing

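No member passed an adjusted p of 0.05 in limma under any of the alternatives run, including an adjusted threshold of 0.1. Over all probe sets the count past the threshold was 0 in each except when arrays were left out, where it ran from 0 to 5 (5 without ipsilateral replicate 1, 2 with both replicate 1 arrays left out, none of them a member). With the replicate block it was 0, with 569 at an unadjusted p under 0.05, and the block changed no call. The block narrowed the interval of Hoxa2 to -0.22 to 0.23 and widened that of the brighter Barhl1 probe set to -0.99 to 0.63. The count of members above the limit was 7, and between 7 and 8 with an array left out. It was 6 at a mean above 5, where Hoxa3 dropped out, 2 at a mean above 6 and 5 without probe sets that have a letter suffix. The differences that follow are those of each gene's brightest probe set, unless the mean of all its probe sets is named. The second probe sets of Hoxa3, Lhx9 and Barhl1 had main differences of the opposite sign (-0.12, 0.02 and 0.21). Hoxb2 and the brighter Lhx9 probe set kept their sign in all settings run. With the choroid plexus marker mean as covariate the difference turned to -0.033 for Hoxa2 and 0.040 for Barhl1, and with the mean of all probe sets to -0.0032 for Hoxa3 and 0.012 for Barhl1. Without both ipsilateral arrays low in choroid plexus markers, which sets 1 ipsilateral array against 3, it turned to -0.018 for Hoxa2, -0.013 for Meis1 and 0.28 for Barhl1; the cause was not tested. Leaving out 1 array or the 2 arrays of a replicate number gave -0.17 to 0.22 for Hoxa2, -0.25 to -0.01 for Hoxb2, 0.0052 to 0.20 for Meis1, -0.070 to 0.29 for Hoxa3, -0.18 to 0.033 for Meis2 and -0.49 to 0.26 for Barhl1. Leaving out probe sets with a letter suffix left no value for the brightest Hoxa3 and Barhl1 probe sets or for Meis1 and Meis2, and a minimum of 6 none but for those 2.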
